A study of Mus musculus with 16 samples.

Results

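The 8 genes described here are genes by which resident macrophages of the mouse peritoneum and other tissues are told apart: Gata6, Timd4, Icam2, Adgre1, Lyve1, Folr2, Vsig4 and Maf. They were chosen by name, not by a measured value, out of 22298 genes counted in 16 tumors. All 8 were paired with an Ensembl mouse identifier, and all 8 had the 10 reads over the 16 tumors that the test asked for. The study asked how IL-33, a cytokine of damaged barrier tissue, changes the immune cells of gastric cancer spread through the abdomen. Wild-type 615-line mice, 6 weeks old, were given 500000 MFC cells into the peritoneal cavity, MFC being a forestomach carcinoma line that grows in this strain. The vehicle group then received PBS and the IL-33 treatment group IL-33 at 20 µg/kg, by the same route and every 2 days. RNA of 8 abdominal tumors of each group was sequenced, so that each value below is the average over the tumor cells, macrophages and all other cells of a piece of tissue.

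The peritoneal cavity of an untreated mouse is held by large peritoneal macrophages, long-lived cells whose identity depends on the transcription factor GATA6. Retinoic acid made by mesothelial and stromal cells under the factor WT1 sustains Gata6 in them, and ICAM2, F4/80 (the product of Adgre1) and TIM4 (the product of Timd4) mark their surface. Resident macrophages of connective tissue, the omentum and vessel walls carry LYVE1 and FOLR2 and can carry TIM4 as well. Cells recruited from blood monocytes at first lack these markers and carry CCR2 and MHC class II genes. Several of the 8 genes are also used by other cells: GATA6 by mesothelial, ovarian and smooth muscle cells, LYVE1 by lymphatic endothelium, and ICAM2 by blood endothelium and platelets.

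The reads counted on genes ranged from 14139268 to 24290794 in the vehicle group and from 16569613 to 24288893 in the IL-33 treatment group, and levels are given as CPM, the counts scaled to the total of the tumor. IL-33 replicate 7 stood apart from the other 15 tumors: 7230 of the 16817 genes tested were at their highest in it. The 10 ovary genes summed to 1010 CPM there against 26.0 at most elsewhere, the 10 uterus and oviduct genes to 1656 against 22.9, and the 6 smooth muscle genes to 5663 against 361. Mki67, a gene of dividing cells, was at 68.8 CPM in it and between 135 and 402 CPM in the other tumors. Vehicle replicate 4 stood apart by transcript length: genes over 5 kb were lower relative to genes under 2 kb by -1.95 on the log2 scale, the next tumor being IL-33 replicate 3 at -0.74. Each comparison of the members is therefore given with all 16 tumors and without IL-33 replicate 7. The labels do not tie the tumors to mice. The methods describe fewer mice per group in this model than there are tumors, although a survival experiment of the paper in this model used more. The p-values therefore measure the spread between tumors, some of which may share a mouse.

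No member passed the test between the groups once it was adjusted over all genes. The test of edgeR (quasi-likelihood, Benjamini-Hochberg adjustment over 16817 genes) called 0 of the 8 members at an adjusted p under 0.05, where it called 0% of all genes, and DESeq2 and limma voom also called 0. At an unadjusted p under 0.05, 1 of the 8 (Gata6) was higher in the IL-33 treatment group, where 9.99% of all genes were, and 0 of the 8 were lower, where 1.17% of all genes were. Without IL-33 replicate 7, 0 of the 8 were higher at that threshold against 1.83% of 15803 genes, and 0 were lower against 2.29%. The median log2 fold change of the 8 was 0.13 with all tumors and -0.031 without IL-33 replicate 7, and that of all genes was 0.056 and -0.011. The CPM ranges of the groups overlapped for each of the 8 members, and 0% of all genes had ranges that did not overlap, with or without IL-33 replicate 7 (0% in each case).

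**Figure D1:**
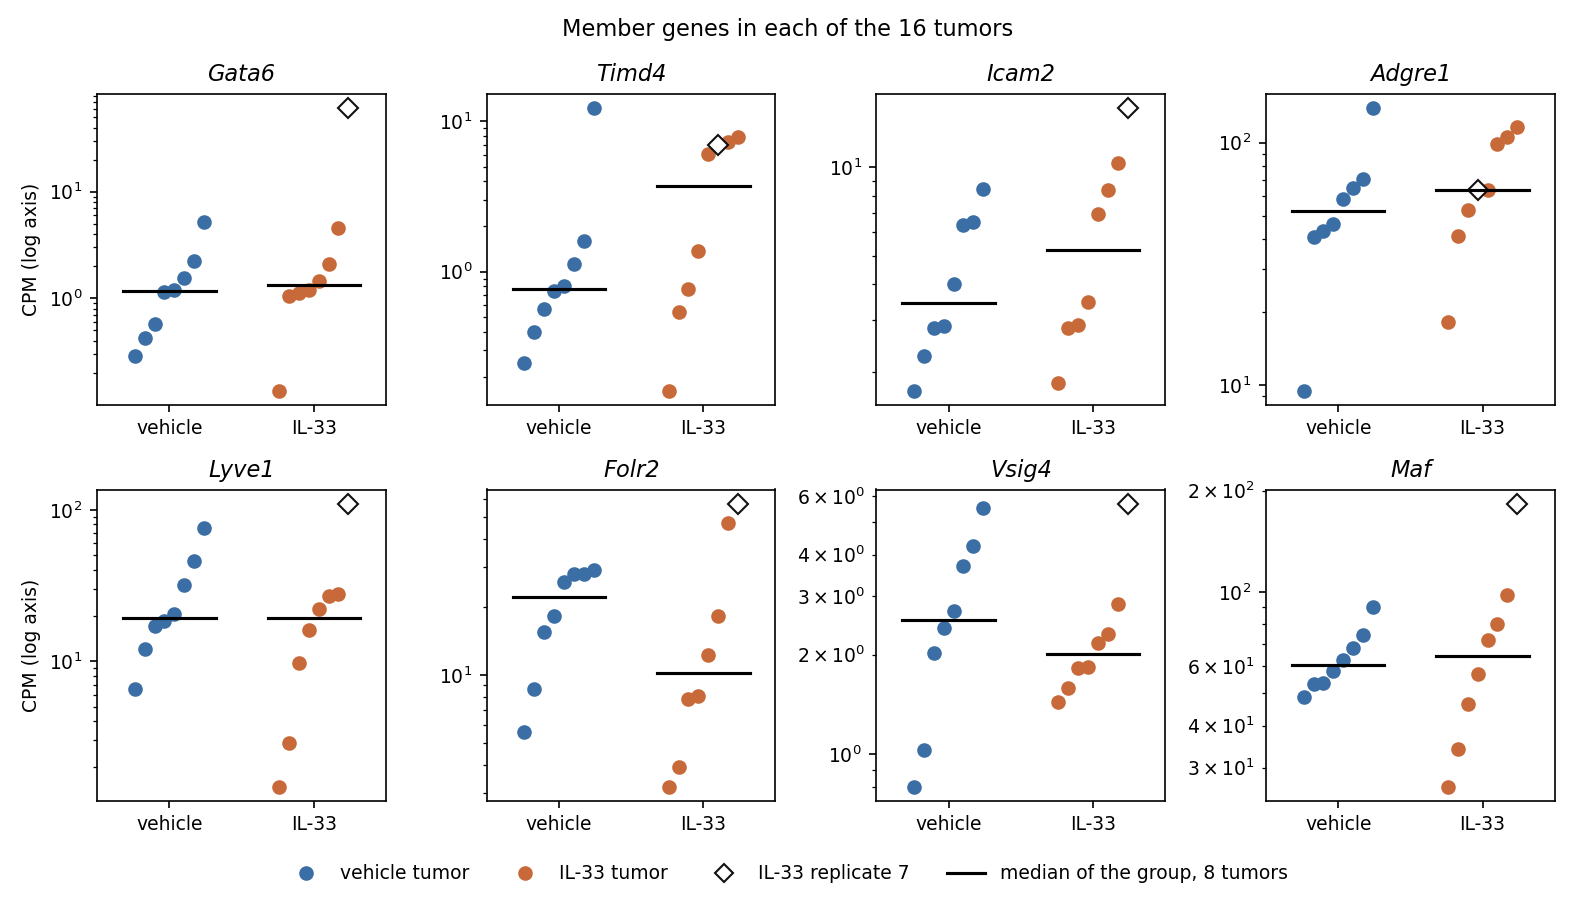
Level of each member in each tumor, as CPM on a log axis, with 8 vehicle and 8 IL-33 tumors; points are tumors in order of level, lines are group medians and the open diamond is IL-33 replicate 7. The diamond is the highest of the 16 points for Gata6, Icam2, Lyve1, Folr2, Vsig4 and Maf, and the remaining points of the groups overlap in every panel.

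Gata6, the factor that sets the identity of large peritoneal macrophages, had the lowest median level per length of transcript of the 8 genes over the 15 tumors (0.562 TPM). It lies at chr18:11052064-11085635 on the plus strand (GRCm38). Vehicle tumors held from 0.286 to 5.15 CPM, with a median of 1.17, and the highest was vehicle replicate 2. Among IL-33 tumors the lowest was replicate 1 at 0.136 CPM (3 reads), the median 1.33 and the highest replicate 7 at 61.5. The 7 other IL-33 tumors ended at 4.54 CPM, inside the vehicle range, and 1080 of the 1296 reads of the group (83.3%) came from replicate 7. The log2 fold change was 2.31 ± 0.98 (SE, edgeR, n = 8 and 8, unadjusted p = 0.0310, adjusted p = 0.418). Without IL-33 replicate 7 it was 0.12 ± 0.63 (unadjusted p = 0.847, adjusted p = 0.987). DESeq2 gave 0.09 with all 16 tumors and 0.13 without IL-33 replicate 7. By default DESeq2 replaces outlying counts in groups of 8, so its 0.09 may not rest on the full count of that tumor. The unadjusted p of edgeR was also above 0.05 without vehicle replicate 1 (0.0504), 4 (0.0559), 7 (0.0519) or 8 (0.0528). When the 16 tumors were assigned to groups in all 12870 ways, the two-sided exact permutation p for log2(CPM + 0.5) was 0.408, and in the 6435 ways without IL-33 replicate 7 it was 0.815.

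Genes of other cells stood beside the high Gata6 value. In IL-33 replicate 7, Wt1 of mesothelium, stroma and ovary was at 138.6 CPM against at most 3.90 in the other 15 tumors. Gata4, a relative of Gata6 used in ovary and stroma rather than in macrophages, was at 41.9 CPM against at most 0.797, and Aldh1a1, an enzyme of retinoic acid synthesis, at 483 CPM against at most 6.77. The 16 genes shared by macrophages (Cd68, Csf1r, C1qa and others) averaged 6.76 on the log2(CPM + 0.5) scale in that tumor. This lay inside the range of the other IL-33 tumors, from 5.68 to 7.51. Csf1r, however, was highest there, at 239 CPM against at most 231 elsewhere. The sum of the 13 other genes of the large peritoneal macrophage program was also highest there, at 579 CPM against at most 535. The single genes were divided. Garnl3, Tgfb2, Alox15, Prg4, Selp and Rarb were each highest in IL-33 replicate 7. Ltbp1, Cxcl13, F5, F10, Serpinb2 and Fcna were highest in other tumors, and Aspa was at its lowest in IL-33 replicate 7. The 12 interstitial resident macrophage genes summed to 2871 CPM against at most 1240. The 12 monocyte-derived macrophage genes, at 1179 CPM, did not stand above the rest (at most 2085). What part ovarian, stromal or macrophage cells had in the Gata6 reads of IL-33 replicate 7 was not tested. In the 15 other tumors, the gene whose order was most like that of Gata6 was Wt1 (Spearman's rho 0.88, out of 12418 genes with a mean of at least 1 CPM). Sav1 (0.85), a component of the Hippo pathway, followed. With the 16 macrophage genes summed, the rho of Gata6 was -0.28, and with the 13 other genes of the large peritoneal macrophage program it was 0.39. With 7 mesothelium genes summed, Wt1 among them, it was -0.14, and with 10 ovary genes 0.39. Such sums follow their most abundant genes. In the mesothelium sum this was Msln, at an average log2 CPM of 9.46 over these tumors, with Bnc1 next at 4.43. In the macrophage sum it was Lgals3, at 10.3, with Lyz2 next at 8.47. The points behind these rho values share libraries and, for Gata6, rest on between 3 and 84 reads a tumor. Wt1 went down to 0.045 CPM in these tumors.

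Maf encodes the factor c-MAF, which is active in resident macrophages and also in some T cells, and lies at chr8:115682942-115707794. It was the most even of the 8 genes. Vehicle tumors lay between 48.7 and 89.9 CPM, with a median of 60.4, and IL-33 tumors between 26.3 (replicate 6) and 183 (replicate 7), with a median of 64.3. IL-33 tumors were found both below and above every vehicle tumor, with 3 below and 2 above. Its log2 fold change was 0.066 ± 0.27 (edgeR, adjusted p = 0.965), and -0.18 ± 0.22 (adjusted p = 0.964) without IL-33 replicate 7.

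Timd4 encodes TIM4, a receptor for phosphatidylserine with which resident macrophages take up dying cells (chr11:46810800-46844332, plus strand). It varied more between tumors than nearly all genes: its SD of log2(CPM + 0.5) over the 15 tumors, 1.39, was at percentile 98.2 of the 12418 genes. Vehicle tumors had from 0.247 to 1.60 CPM except replicate 2, which had 12.3, and their median was 0.771. IL-33 tumors divided into replicates 3, 4, 7 and 8, with 7.81, 7.31, 6.95 and 6.05 CPM, and replicates 1, 2, 5 and 6, with 0.772, 0.543, 1.37 and 0.162. So 4 IL-33 tumors and 1 vehicle tumor stood above the rest, and the groups overlapped through the remainder. Between the groups the log2 fold change was 0.69 ± 0.85 (edgeR, unadjusted p = 0.425, adjusted p = 0.829), and 0.57 ± 0.87 (adjusted p = 0.965) without IL-33 replicate 7. It depended on vehicle replicate 2: without this tumor it was 2.07 (unadjusted p = 0.0127, adjusted p = 0.469). Vehicle replicate 2 was also the tumor with the most RNA of liver genes, with Alb at 22.9 CPM against at most 0.515 elsewhere, and it had the highest Cd5l, a gene of Kupffer and other macrophages, at 34.8 CPM. Clec4f, which defines Kupffer cells, had at most 0.184 CPM in any tumor, that is 3 reads or fewer. The part of liver tissue in the Timd4 value of that tumor was not tested.

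The promoter of Timd4 is shown because the gene varied most and moved with Maf across tumors (rho 0.56 over 15 tumors). That of Folr2 is shown because the gene belonged to another pattern, the pair with Lyve1 described below (rho of Folr2 with Timd4 -0.16). Folr2 had a rho of 0.34 with Maf over the 15 tumors. Within the vehicle group the rho with Maf was 0.26 for Timd4 and 0.60 for Folr2. Each promoter runs from 250 bases before to 50 after the start of a transcript, 5′ to 3′ on the strand of the gene. The windows come from the promoters of RefSeq (GRCm38.p6), which gave them for 3 of the 8 members (Timd4, Vsig4 and 2 starts of Folr2). Capitals mark the letters TGCTGA, the core that MAF proteins bind, on either strand (TCAGCA when it lies on the other). Timd4 is at chr11:46810549-46810848, plus strand, and Folr2 at chr7:101857141-101857440, minus strand.
Timd4: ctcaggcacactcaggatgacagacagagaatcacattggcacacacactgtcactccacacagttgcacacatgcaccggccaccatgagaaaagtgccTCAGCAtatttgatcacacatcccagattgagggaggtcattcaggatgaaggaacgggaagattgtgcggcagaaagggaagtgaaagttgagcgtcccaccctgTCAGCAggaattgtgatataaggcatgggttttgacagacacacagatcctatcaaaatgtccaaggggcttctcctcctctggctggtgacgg
Folr2: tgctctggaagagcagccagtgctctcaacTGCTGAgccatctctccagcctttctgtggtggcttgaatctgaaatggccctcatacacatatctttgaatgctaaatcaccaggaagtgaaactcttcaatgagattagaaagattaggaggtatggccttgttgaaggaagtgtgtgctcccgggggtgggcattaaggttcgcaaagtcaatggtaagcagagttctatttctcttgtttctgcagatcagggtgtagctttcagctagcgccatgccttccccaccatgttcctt
The core lay at -150 and -44 from the start of Timd4, at -220 in the printed window of Folr2, at -19 in the other window of Folr2, and 23 bases after the start of Vsig4. Of 32851 promoters of this length, 19.5% hold it, so that a match is common. The core GAGGAA of PU.1, the lineage factor of macrophages, lay at -155 and -53 in Vsig4 and not in the printed windows (28.3% of all promoters hold it), and neither AGATAA nor TGATAA, the letters bound by GATA factors, was in any of the 4 windows (18.6% of all promoters). No motif overlapped another.

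Icam2 encodes an adhesion molecule of large peritoneal macrophages, and also of endothelium and platelets (chr11:106377656-106388075, minus strand). Vehicle tumors had from 1.73 to 8.46 CPM, with a median of 3.43, and IL-33 tumors from 1.84 to 16.01, with a median of 5.21. The highest were IL-33 replicates 7 (16.01), 3 (10.3) and 4 (8.36) and vehicle replicate 7 (8.46), and the groups overlapped over the rest of the range. For Icam2 the log2 fold change was 0.37 ± 0.45 (edgeR, adjusted p = 0.829), and 0.13 ± 0.43 (adjusted p = 0.978) without IL-33 replicate 7. When vehicle replicate 4 was left out instead, it was 0.62, and without both tumors 0.38. The 9 blood endothelium genes (Pecam1, Cdh5 and others) summed to 1057 CPM in IL-33 replicate 7 and to between 107 and 284 in the other tumors, where their rho with Icam2 was 0.84. The part of endothelium in the Icam2 reads was not tested.

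Adgre1 encodes F4/80, the classical surface marker of mouse macrophages (chr17:57358691-57483527, plus strand). It was the most abundant member per length of transcript, with a median of 52.9 TPM (CPM per length of transcript, scaled to a common total) over the 15 tumors. Vehicle tumors ran from 9.48 CPM in replicate 4 to 139 in replicate 7, with a median of 52.5, and IL-33 tumors from 18.2 in replicate 6 to 116 in replicate 4, with a median of 63.9. The IL-33 values lay inside the vehicle range, and the log2 fold change was 0.19 ± 0.37 (edgeR, adjusted p = 0.908). It was 0.25 ± 0.38 (adjusted p = 0.965) without IL-33 replicate 7. When vehicle replicate 4, the tumor with the fewest reads on long genes, was left out instead, it was 0.051. Csf1r, whose product is the receptor of the main macrophage growth factor, had 53.8 CPM in vehicle replicate 4, also its lowest value, while Cd14 had 248 CPM there, its highest.

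Lyve1 encodes a hyaluronan receptor of interstitial resident macrophages and of lymphatic endothelium (chr7:110850607-110863239, minus strand). Vehicle tumors had from 6.50 to 75.4 CPM, with a median of 19.4. IL-33 tumors had a median of 19.2, with 1.48 in replicate 8, 2.86 in replicate 4 and 109.8 in replicate 7. Thus 2 IL-33 tumors lay below every vehicle tumor and 1 above. For Lyve1 the log2 fold change was -0.22 ± 0.65 (edgeR, adjusted p = 0.949), and -0.89 ± 0.59 (unadjusted p = 0.149, adjusted p = 0.964) without IL-33 replicate 7. In the exact permutation test without that tumor p was 0.154, and of the 7 tumors 0 exceeded the mean of the vehicle group, which vehicle replicate 3 raised, and 3 its median. Limma voom with sample weights gave -1.62 with all 16 tumors (unadjusted p = 0.0254). Lymphatic endothelium moved with the highest value: its 6 genes summed to 314 CPM in IL-33 replicate 7 and at most 23.3 elsewhere, the latter in vehicle replicate 3, which was also the vehicle tumor with the most Lyve1. Prox1, the factor that defines lymphatic endothelium, was at 4.62 CPM in IL-33 replicate 7 and at most 0.593 in the other tumors, and its part in the Lyve1 reads was not tested. Beside the Lyve1 value of -0.89 without that tumor, 3 of the 6 lymphatic genes were lower at an unadjusted p under 0.05, where 2.29% of all genes were. These were Ccl21a, Mmrn1 and Pdpn (edgeR, log2 fold changes -3.52, -2.45 and -0.74, adjusted p = 0.964 for each). The first 2 rest on few reads. Ccl21a had at most 4.53 CPM in vehicle and 0.318 in the 7 IL-33 tumors, and Mmrn1 had an average log2 CPM of -1.03 over the 15 tumors. Over the 15 tumors the rho of Lyve1 was 0.40 with the summed lymphatic genes and 0.76 with 12 summed interstitial resident macrophage genes. Folr2 had a rho of 0.51 with the lymphatic sum.

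Folr2 encodes a folate receptor of resident macrophages (chr7:101839988-101857194, minus strand). Vehicle tumors had from 5.58 to 29.2 CPM, with a median of 22.1, and IL-33 tumors from 3.21 to 57.3, with a median of 10.2. Only 2 of the 8 IL-33 tumors, replicates 3 (47.1) and 7 (57.3), exceeded the vehicle median, and they exceeded every vehicle tumor, while replicates 4 and 8, at 3.92 and 3.21 CPM, lay below every one. For Folr2 the log2 fold change was -0.22 ± 0.55 (edgeR, adjusted p = 0.937), and -0.58 ± 0.54 (adjusted p = 0.964) without IL-33 replicate 7. When vehicle replicate 4 was left out instead, it was -0.040, and without both tumors -0.37.

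Vsig4 encodes the complement receptor CRIg, found on resident macrophages of liver and body cavities (chrX:96247203-96293438, minus strand). It had few reads, between 14 and 112 a tumor. Vehicle tumors had from 0.800 CPM in replicate 7 to 5.53 in replicate 3, with a median of 2.55. IL-33 tumors had from 1.44 to 5.70, with a median of 2.00, and without replicate 7 they ended at 2.84. The vehicle tumors thus enclosed the 7 other IL-33 tumors, and the log2 fold change was -0.39 ± 0.43 (edgeR, adjusted p = 0.801), or -0.61 ± 0.41 (adjusted p = 0.964) without IL-33 replicate 7. When vehicle replicate 4 was left out instead, it was -0.14, and without both tumors -0.35. For all 8 members, fewer cells of a type and less RNA per cell cannot be told apart in such bulk samples.

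**Figure D2:**
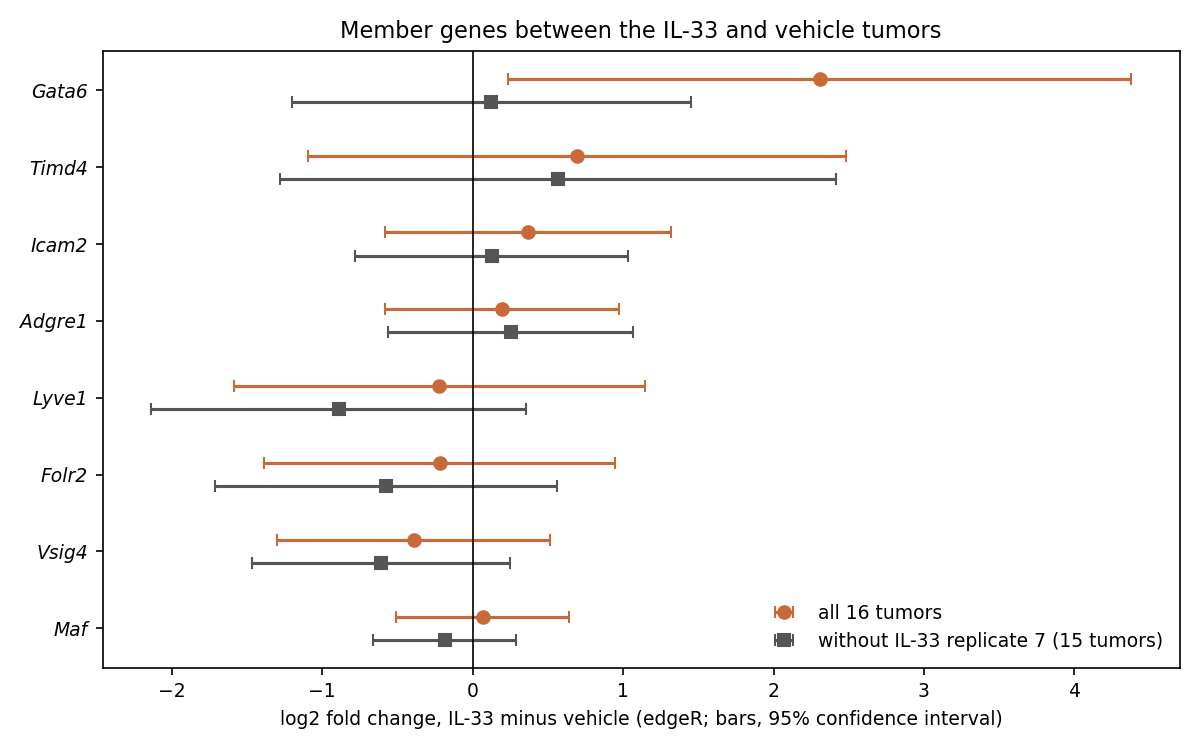
The log2 fold change of each member between the IL-33 and vehicle tumors, with its 95% confidence interval from edgeR, over all 16 tumors (circles) and over 15 without IL-33 replicate 7 (squares). The interval of Gata6 runs from 0.24 to 4.38 with all tumors and from -1.20 to 1.45 without IL-33 replicate 7, and every other interval includes 0.

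The intervals show how large a difference remained possible. Without IL-33 replicate 7, the 95% interval of the log2 fold change ran from -0.66 to 0.29 for Maf, from -0.56 to 1.07 for Adgre1, from -1.47 to 0.25 for Vsig4 and from -0.78 to 1.03 for Icam2. It was wider for the other members, from -2.14 to 0.35 for Lyve1, from -1.71 to 0.56 for Folr2, from -1.20 to 1.45 for Gata6 and from -1.28 to 2.42 for Timd4. The spread of Lyve1, Folr2, Adgre1 and Gata6 over the 15 tumors was at percentiles 98.0, 96.0, 94.5 and 92.0 of the 12418 genes, that of Icam2, Vsig4 and Maf at 87.8, 74.7 and 63.1.

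Per length of transcript, the order of the members over the 15 tumors was Adgre1, Folr2, Maf, Lyve1, Icam2, Vsig4, Timd4 and Gata6, with median levels of 52.9, 29.3, 22.2, 19.8, 5.42, 4.60, 1.09 and 0.562 TPM. Adgre1 was above Folr2 in 13 of the 15 tumors and Timd4 above Gata6 in 13, whereas Maf was above Lyve1 in 9, so that Maf and Lyve1 did not differ beyond their spread. Folr2 was above Maf in 11, Lyve1 above Icam2 in 12, and Icam2 above Vsig4 and Vsig4 above Timd4 in 10 each. In IL-33 replicate 7 the order was another, with Lyve1 at 115.7 TPM, Folr2 at 114 and Gata6 at 29.1.

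The 8 genes did not move together across tumors. Over the 15 tumors Timd4, Icam2, Adgre1 and Maf shared much of their order, with rho between 0.56 and 0.71 for each pair. Lyve1 and Folr2 formed another pair with a rho of 0.71, while Lyve1 ran against Timd4 (-0.56) and Icam2 (-0.63). Within the vehicle group the 6 pairs of Timd4, Icam2, Adgre1 and Maf had rho between 0.21 and 0.52, and within the 7 IL-33 tumors between 0.86 and 0.96. The pair of Lyve1 and Folr2 had 0.40 and 0.93. Vsig4 ran against Adgre1 (-0.59), and Gata6 was within 0.24 of 0 with each member but Vsig4 (0.40). Leaving IL-33 replicate 7 in, the 28 pairs kept the pair of Lyve1 and Folr2 at 0.76 and that of Timd4 and Icam2 at 0.74. These are descriptions over tumors that share their libraries among all genes, and no test was made of them.

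**Figure D3:**
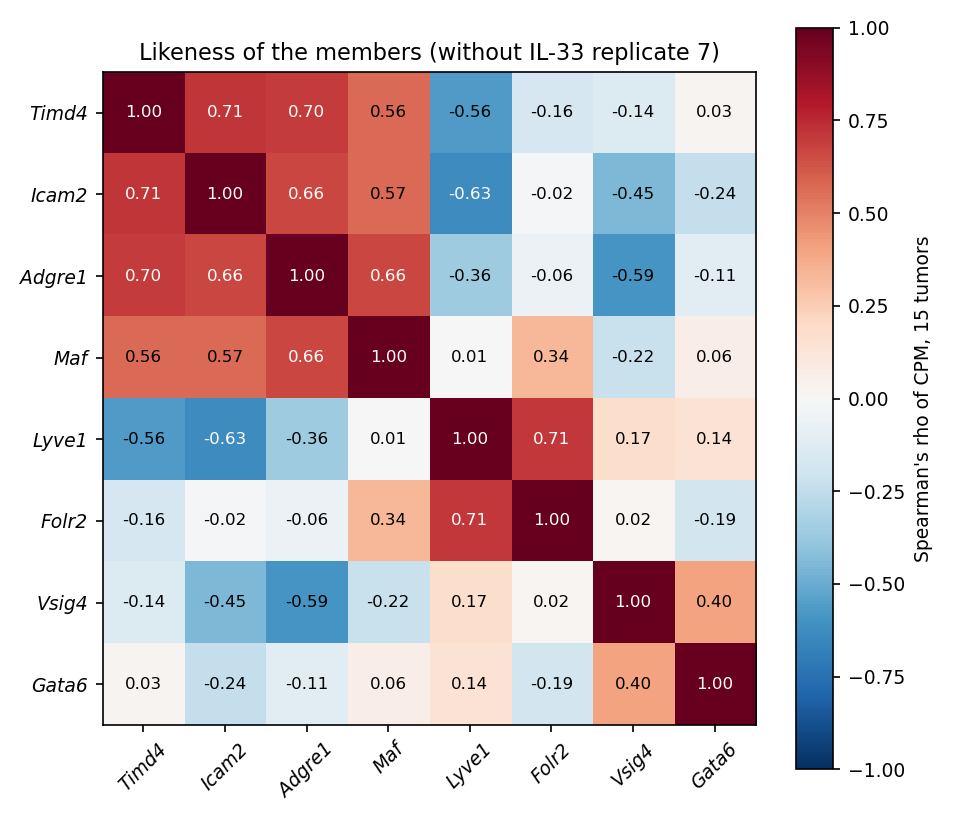
Spearman's rho of the CPM of each pair of members over the 15 tumors without IL-33 replicate 7 (red, same order; blue, opposite order). Timd4, Icam2, Adgre1 and Maf form the red block at the upper left, with values from 0.56 to 0.71, and Lyve1 and Folr2 the smaller one with 0.71.

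Each pattern had companions among other genes. The genes most like Lyve1 in order were F13a1 and Mrc1 (rho 0.91 and 0.90), both of interstitial resident macrophages, then Cmbl (0.88). With Folr2, the highest were Ptx3, Npl and Ang (0.95, 0.94 and 0.94), and the sum of 12 interstitial resident macrophage genes, a list that holds no member, had a rho of 0.94 with Folr2 and 0.76 with Lyve1. The genes most like Icam2 were Psmb2, Aif1 and Rnaset2b (0.98, 0.96 and 0.96), of which Aif1 is a macrophage gene. Those most like Adgre1 were Fgl2, Arhgap4 and Pik3cd (each 0.98), for Maf they were Treml2, Mov10 and Lactb (0.93, 0.93 and 0.92), for Timd4 Col11a2, Amz1 and Slc15a3 (0.91, 0.89 and 0.88) and for Vsig4 Frs3, Slc30a9 and Sept9 (0.87, 0.82 and 0.80). The sum of 12 genes of monocytes and monocyte-derived macrophages (Ccr2, Ly6c2, H2-Ab1, Cd74 and others) had a rho of 0.91 with Icam2, 0.80 with Adgre1 and 0.79 with Timd4, and -0.57 with Lyve1. That of 8 T cell genes had 0.90 with Icam2, 0.78 with Adgre1, 0.68 with Maf and 0.67 with Timd4, and -0.54 with Lyve1 and -0.57 with Vsig4. With Maf it was 0.21 within the vehicle group and 0.96 within the 7 IL-33 tumors. The 5 of the 15 tumors with the highest sum of the monocyte-derived genes, from 1113 to 2085 CPM where the others had at most 268, were vehicle replicates 2 and 7 and IL-33 replicates 3, 4 and 8. They were also the 5 highest for Timd4, for Adgre1 and for the summed T cell genes, the last from 28.3 to 81.2 CPM where the others had at most 20.9. Cd74 alone made 1435 of the 2085 CPM in vehicle replicate 7. Which cells carried the genes of this sum was not tested. Lyve1 and F13a1 were at their lowest in 3 tumors, IL-33 replicates 4 and 8 and vehicle replicate 2.

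**Figure D4:**
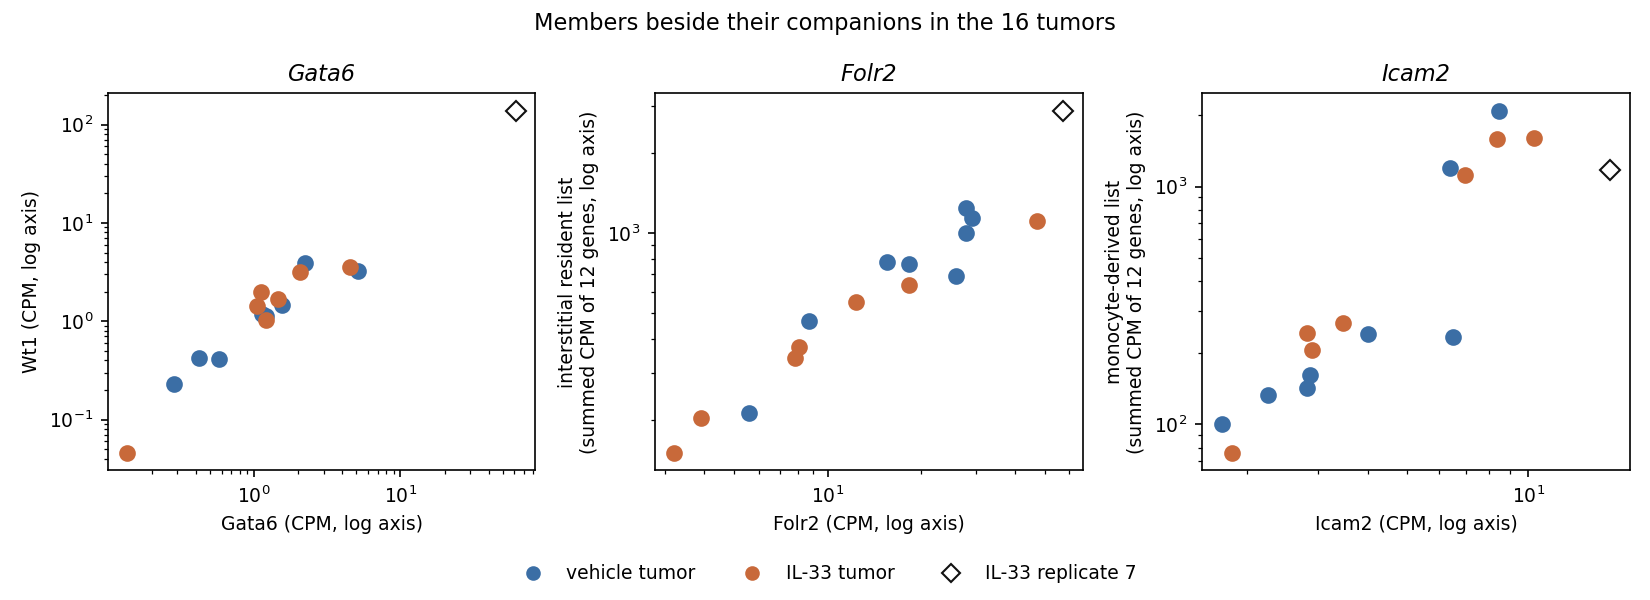
Gata6 beside Wt1, Folr2 beside the summed level of 12 interstitial resident macrophage genes, and Icam2 beside the summed level of 12 monocyte-derived macrophage genes, one point per tumor, CPM on log axes. Over the 15 tumors other than IL-33 replicate 7 (open diamond) the rho values are 0.88, 0.94 and 0.91, and vehicle and IL-33 tumors lie along the same diagonals.

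The other genes of the large peritoneal macrophage program were read in the same way. Of 13 such genes (Aspa, Garnl3, Tgfb2, Alox15, Cxcl13 and others), 0 were higher and 0 lower at an unadjusted p under 0.05 with all tumors (9.99% and 1.17% of all genes). Without IL-33 replicate 7, 1 was lower and 0 were higher (2.29% and 1.83% of all genes), with a median log2 fold change of -0.14. The lower gene was Fcna, a ficolin made by macrophages, with 20.5 to 208 CPM in vehicle and 15.4 to 70.3 in the 7 IL-33 tumors, and a log2 fold change of -1.34 ± 0.59 (edgeR, unadjusted p = 0.0374, adjusted p = 0.964), and of -0.89 ± 0.60 with all tumors. Its highest tumor was vehicle replicate 4. Selp and Tgfb2, a selectin and a growth factor of these cells, were highest in IL-33 replicate 7 (37.3 and 25.1 CPM) and had log2 fold changes of 0.88 ± 0.44 and 1.65 ± 0.86 with it and 0.32 ± 0.32 and -0.29 ± 0.52 without it. Of the 15 genes that feed or accompany GATA6 (retinoic acid enzymes and receptors, Csf1, Klf4, Spi1 and others), 2 were higher with all tumors (9.99% of all genes), Wt1 and Aldh1a1 (log2 fold changes 3.37 ± 1.17 and 3.66 ± 1.19), and 0 without IL-33 replicate 7, where the values were 0.31 and -0.24.

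The interstitial resident macrophage genes, the companions of Lyve1 and Folr2, mostly had negative fold changes once IL-33 replicate 7 was left out. Of the 12 genes, 11 had a log2 fold change below 0 without that tumor, where 8229 of all 15803 genes had. Their median was -0.93, and that of all genes was -0.011. The 12 genes were read in the same tumors and are not separate observations. At an unadjusted p under 0.05, 2 of the 12 were lower and 0 higher, where 2.29% and 1.83% of all genes were, and 0 passed adjustment. These were Stab1, a scavenger receptor, with 46.4 to 204.6 CPM in vehicle and 34.5 to 158 in IL-33 tumors (log2 fold change -0.92 ± 0.35, edgeR, unadjusted p = 0.0189), and Gas6, a bridge to dying cells, with 27.0 to 130.5 and 13.9 to 105 CPM (-0.95 ± 0.43, unadjusted p = 0.04415). With all 16 tumors Stab1 had -0.39 ± 0.45, and Gas6 turned to 0.86 ± 0.77, being at 907 CPM in IL-33 replicate 7. Pf4, a chemokine of these cells, had -1.06 ± 0.63 (unadjusted p = 0.115) without that tumor and -1.03 ± 0.60 with it. With all 16 tumors the median of the list was -0.30, 0 genes were lower and 1, the lipid receptor Cd36, was higher (1.49 ± 0.64, unadjusted p = 0.0315), Cd36 being at 409 CPM in IL-33 replicate 7 against at most 65.6 elsewhere. The summed level of the list was 211.9 to 1240 CPM in vehicle and 149.6 to 1108 in the 7 IL-33 tumors, so the groups overlapped, and it was 2871 CPM in IL-33 replicate 7, above every other tumor. The lowest sums were those of IL-33 replicates 8 and 4 (149.6 and 202.4 CPM) and vehicle replicate 2 (211.9 CPM).

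Among 12 monocyte-derived macrophage genes, 2 were higher and 0 lower without IL-33 replicate 7 (1.83% and 2.29% of all genes), with a median log2 fold change of 0.33. Irf4, a factor of monocyte-derived and dendritic cells, had 0.354 to 4.72 CPM in vehicle and 0.757 to 17.7 in the 7 IL-33 tumors (1.80 ± 0.63, edgeR, unadjusted p = 0.0112). Ly6c2, a surface gene of monocytes, had 7.00 to 95.4 and 4.11 to 200.7 CPM (1.68 ± 0.71, unadjusted p = 0.0304). Neither passed adjustment (adjusted p = 0.964 for both), and with all tumors, where the values were 1.75 ± 0.61 and 1.48 ± 0.74, Irf4 alone was called at the unadjusted threshold.

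Of 20 relatives of the members in sequence (other GATA, TIM, ICAM, adhesion GPCR, folate receptor and MAF genes), 3 were higher with all 16 tumors, Gata2, Gata4 and Folr1, where 9.99% of all genes were. All 3 were highest in IL-33 replicate 7, with 123, 41.9 and 22.6 CPM against at most 3.60, 0.797 and 0.566 elsewhere. Without it 0 were higher and 1, Gata2, was lower, where 2.29% of all genes were (-0.80 ± 0.35, edgeR, unadjusted p = 0.0360).

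To set the members against the amount of macrophage RNA, each was taken relative to the mean of the 16 macrophage genes of its tumor, on the log2(CPM + 0.5) scale. That mean itself was 6.58 ± 0.43 (SD, n = 8) in vehicle and 6.74 ± 0.57 (n = 8) in IL-33 tumors, and 6.74 ± 0.61 (n = 7) without replicate 7. Csf1r, Cd68 and C1qa had log2 fold changes of 0.14, -0.0021 and -0.061 without that tumor. Relative to these genes, the difference between the IL-33 and vehicle tumors was 0.68 for Timd4 (two-sided exact permutation p = 0.247), -0.63 for Folr2 (exact p = 0.324) and -0.78 for Lyve1 (exact p = 0.382). Gata6, Icam2, Adgre1, Vsig4 and Maf had differences of 0.59, 0.24, 0.18, -0.25 and -0.14, with exact p between 0.455 and 0.752.

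Maf had the smallest p in this comparison once IL-33 replicate 7 was left out. The ratio was -0.61 ± 0.30 (SD, n = 8) in vehicle and -0.97 ± 0.23 (n = 7) in IL-33 tumors, a difference of -0.36 (two-sided exact permutation p = 0.0211, not adjusted for the 16 tests of this kind), with 0 of 7 above the mean of the vehicle group. The IL-33 tumors lay between -1.48 and -0.78, and the vehicle tumors between -1.03 and -0.18, so the ranges overlapped. The part of T cells in the Maf reads was not tested. With Csf1r as the only reference the difference was -0.38 (exact permutation p = 0.0584), and without IL-33 replicate 5, the lowest tumor, it was -0.28 (exact permutation p = 0.0546). With all 16 tumors it was -0.14 (exact permutation p = 0.626), since IL-33 replicate 7 was the highest of all at 0.76. The corresponding differences of Lyve1 and Folr2 without IL-33 replicate 7 were -1.19 and -0.94 (exact permutation p = 0.171 and 0.135), and that of Timd4 0.49 (p = 0.418 in the exact permutation test). Without vehicle replicate 2 the difference of Timd4 was 1.08 (exact permutation p = 0.0326), and with IL-33 replicate 7 left out as well it was 0.88 (exact permutation p = 0.0612).

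**Figure D5:**
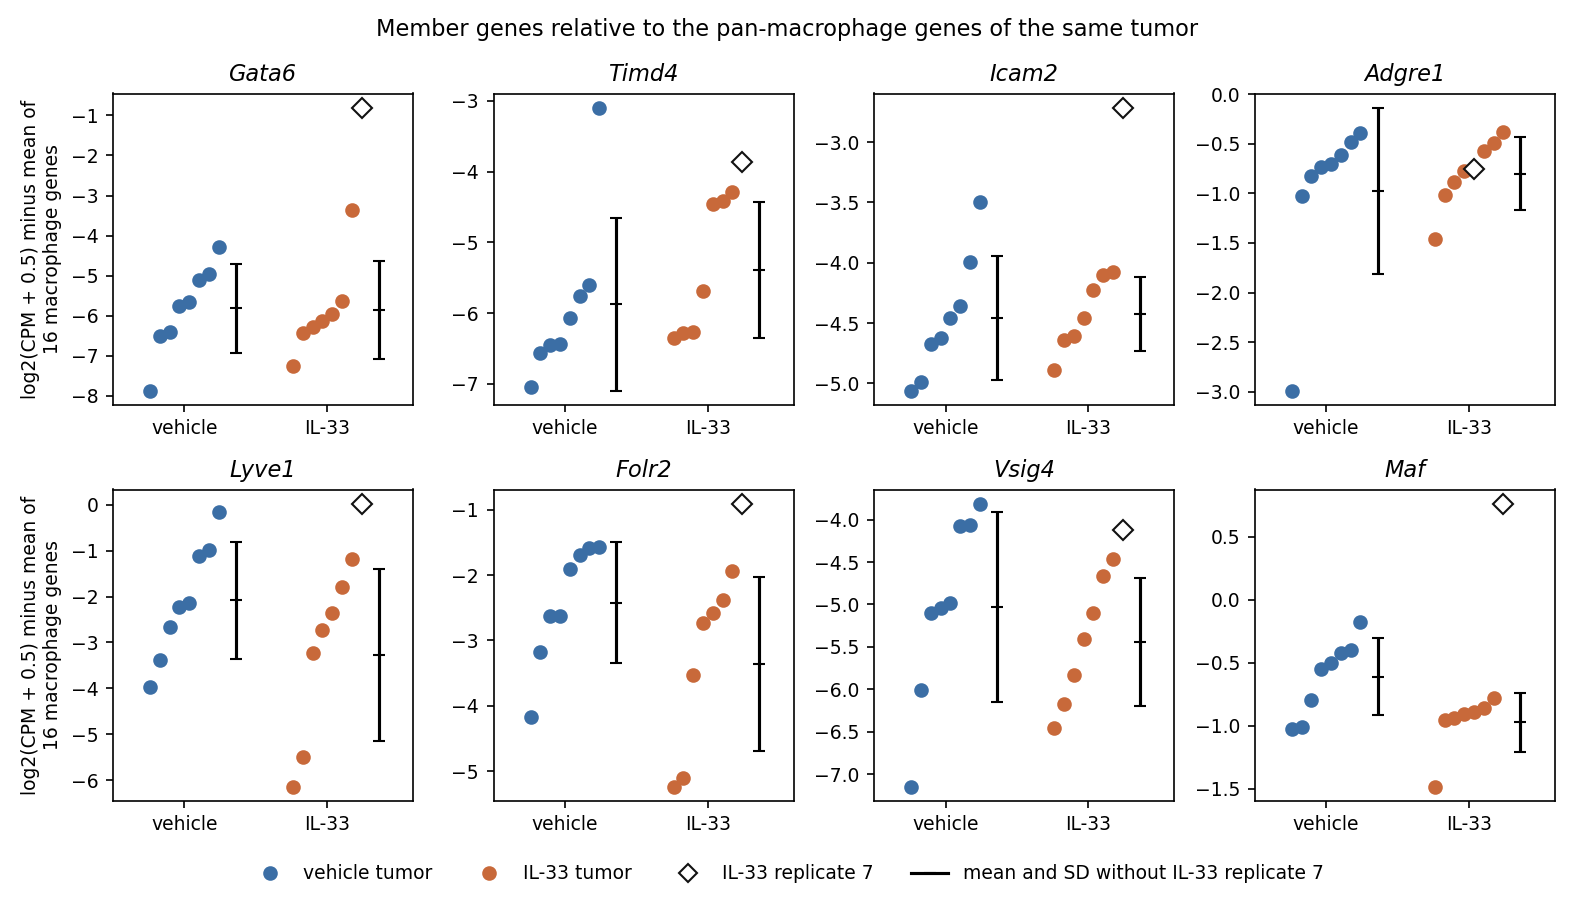
Each member relative to the mean of 16 macrophage genes in the same tumor, as a difference of log2(CPM + 0.5); points are tumors, bars are mean and SD without IL-33 replicate 7 (open diamond). For Maf the 7 IL-33 points lie between -1.48 and -0.78, all below the vehicle mean of -0.61, and for Timd4 replicates 3, 4, 7 and 8 of the IL-33 treatment group lie above all vehicle points but 1.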

How the data were processed

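Polyadenylated RNA was sequenced from 8 abdominal tumors per group, given PBS or IL-33. Raw read counts per gene and tumor were deposited by the authors, and their processing notes name HISAT2, featureCounts and mm10, whereas the annotation release and the use of strand are not given in the sources used here. Identifiers were paired with symbols through GENCODE M21, and no member overlapped another gene of the files. CPM used the total count of a tumor and TPM the union of exons. Genes with at least 10 counts were tested with edgeR 4.0.16 (R 4.3.3, TMM factors, glmQLFit, glmQLFTest). On counts simulated with the spread of all 16 tumors, the model recovered 39 of 100 genes changed 2-fold and 80 of 100 changed 4-fold, with 5 false calls. Changes of 2-fold could thus often be missed. Single values were compared by exact permutation (pseudocount 0.5). At these depths counting error matters for genes of a few reads only.

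The members and lists were chosen with earlier results of these data known. Named are all members, the 2 genes of smallest p in each list, genes of the cavity and interstitial lists with an unadjusted p under 0.05 with or without IL-33 replicate 7, Csf1r, Cd68 and C1qa, and the 3 genes most like each member; 2 genes that this rule names are not reported here. Genes that describe IL-33 replicate 7 and vehicle replicates 2 and 4 were named after their values were seen. Alternatives were DESeq2 1.42.0, limma 3.58.1 voom, other factors and filters, the replicate number as a block, other references and pseudocounts, and each tumor left out.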

Additional observations from a re-analysis of the deposited data

Results flagged for a closer look

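Within the groups of 8, Dixon's ratio (the gap of the highest or lowest tumor to its neighbour over the whole range) passed its limit of 0.526 in 7 of 16 groups. The limit flags about 1 in 20 for normally distributed values. The ratio was taken here on CPM without logs, so the 7 cannot be set against that rate. Each of the 7 was the highest tumor of its group. Of these, 4 were IL-33 replicate 7, with Gata6 at 61.5 CPM (neighbour 4.54), Lyve1 at 109.8 CPM (27.9), Vsig4 at 5.70 CPM (2.84) and Maf at 183 CPM (98.1). In vehicle replicate 2, Gata6 was at 5.15 CPM (2.22) and Timd4 at 12.3 CPM (1.60), and in vehicle replicate 7 Adgre1 was at 139 CPM (70.9), a ratio of 0.527 that only just passed the limit.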

How the results depend on the processing

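The adjusted count of 0 held under every alternative but DESeq2 without IL-33 replicate 7, added later, which called 1 gene, Alas2, named after its value was seen (log2 fold change -3.45, adjusted p = 0.0126). Of 16817 genes, 1680 higher and 196 lower at the unadjusted threshold became 424 higher with DESeq2, 499 with filterByExpr and 522 higher and 444 lower with limma voom. Total counts as the only scale gave 101 lower and moved the median of all genes from 0.056 to 0.13. Without IL-33 replicate 7 the counts were 289 and 362, with vehicle replicate 4 left out as well 330 and 329, and with DESeq2 (added) 286 and 392. Leaving out each tumor gave 289 to 1902 higher and 111 (without vehicle replicate 4) to 362 lower, and the latter was 127 without IL-33 replicate 5 and 307 when replicate 3 of that group was left out.

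Same-numbered tumors did not pair, since their correlations ran from -0.32 to 0.35; the replicate number as a block gave 246 higher and 72 lower and called no member.

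Log2 fold changes with each tumor left out ran from 0.12 to 2.83 for Gata6, 0.42 to 2.07 for Timd4, 0.13 to 0.62 for Icam2, 0.051 to 0.49 for Adgre1, -0.89 to 0.14 for Lyve1 (positive only without vehicle replicate 3), -0.59 to -0.040 for Folr2, -0.61 to -0.14 for Vsig4 and -0.18 to 0.17 for Maf. The sign turned for Gata6 with limma voom (-0.55), and for Maf with limma voom (-0.21), the replicate block (-0.081), when IL-33 replicate 3 (-0.026) or 7 (-0.18) was left out, without vehicle replicate 4 and IL-33 replicate 7 (-0.13) and with DESeq2 without IL-33 replicate 7 (-0.20). The cause was not tested.

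Relative to macrophage genes, the ranges were -0.045 (without IL-33 replicate 7) to 0.88 for Gata6, 0.49 to 1.08 for Timd4 (exact permutation p = 0.0326 without vehicle replicate 2), 0.029 to 0.38 for Icam2, -0.11 (without vehicle replicate 4) to 0.27 for Adgre1, -1.19 to -0.31 for Lyve1, -0.94 to -0.32 for Folr2, -0.55 to -0.074 for Vsig4 and -0.36 to -0.041 for Maf. Without IL-33 replicate 7, Maf ran from -0.42 to -0.28, and with Csf1r alone it was -0.38 (exact permutation p = 0.0584). Of 455 recomputed values 424 kept direction and side of the threshold. Depth limits Gata6 and Timd4, which had as few as 3 reads in a tumor, and Vsig4, with as few as 14.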

Other observations

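The remaining marker lists were read in the same tumors. The 9 epithelial genes had 6 members higher with all 16 tumors and, without IL-33 replicate 7, 0 higher and 2 lower of 7 tested; Epcam and Cldn7 were at 98.8 and 34.9 CPM in that tumor and at most 2.40 and 0.468 elsewhere. Ovary, uterus and oviduct, and smooth muscle lists had 9 of 10, 10 of 10 and 5 of 6 genes higher with all tumors, and 0 higher without it; Cyp11a1, Inha, Ovgp1, Pgr, Cnn1 and Myh11 were at 376, 305, 923, 98.0, 362 and 1541 CPM there and at most 1.37, 0.515, 2.83, 0.984, 3.61 and 14.4 CPM in any other tumor. Adipose genes summed to 2271 CPM in IL-33 replicate 7 and at most 243 elsewhere, with Plin1 at 103 and Lep at 25.2 CPM there. Mesothelial genes had 1 of 7 higher with all tumors, Wt1, and 0 without that tumor, Upk3b being at 59.8 CPM in it. Lymphatic endothelium had 2 of 6 higher with all tumors (Ccl21a and Reln) and 3 of 6 lower without it. Blood endothelium (Pecam1 0.70 ± 0.34, Tek 1.43 ± 0.78, log2 fold change ± SE), T cells (Cd4 0.59 ± 0.65, Cd5 0.57 ± 0.71) and proliferation (Mki67 -0.15 ± 0.26, Birc5 -0.30 ± 0.36) had 0 genes past an unadjusted p of 0.05 in edgeR with all tumors and without IL-33 replicate 7, in which 9.99% and 1.17%, and 1.83% and 2.29%, of all genes were higher and lower. Liver and Kupffer genes had 2 of 6 lower with all tumors, Alb and Fgb, which rested on vehicle replicate 2 at 22.9 and 3.37 CPM. Among the 16 macrophage genes 0 passed with all tumors (smallest p for Itgam, 0.118, and Cd14, 0.154) and 1 without IL-33 replicate 7, Itgam (0.74 ± 0.34, unadjusted p = 0.04465, higher).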
